A study of Rattus norvegicus with 26 samples.

Results

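The integrin subunits and laminin chains of the rat were followed by RNA sequencing in spinal cord segments before and after a compression injury. The members were the rows of the joint count table whose gene symbol was that of an integrin alpha subunit (Itga), an integrin beta subunit (Itgb) or a laminin alpha, beta or gamma chain (Lama, Lamb, Lamc) and that had at least 10 counts in at least 3 libraries. This gave 35 of 32883 genes. They comprised 17 integrin alpha subunits, 8 integrin beta subunits and 10 laminin chains. All 35 were among the 17990 genes tested.

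The 26 libraries came from adult wild type female Sprague-Dawley rats of 250 g, given in the labels as postnatal day 70. Intact rats (4 libraries, untreated per the labels, intact or sham per the study's methods) had no compression. In the other groups the thoracic cord was compressed for 1 min by an aneurysm clip with a closing force of 60 g, and the 5 mm segment around the lesion was collected. The sub-SCI group (3 libraries) was taken at the time of transplantation, 7 days after injury. The remaining groups received an intrathecal injection on that day, either of human mesenchymal stem cells from the umbilical cord (hUC-MSCs, +MSC) or of the vehicle (+PBS), and were collected 1, 2 or 4 weeks post-transplantation (wpt). There were 3, 2 and 4 +PBS libraries and 3, 3 and 4 +MSC libraries at 1, 2 and 4 wpt per the labels, whereas the study's methods give the group of 2 libraries as the +MSC group at 2 wpt. The study's results name 3 +MSC samples at 2 wpt, as the labels do. The injected cells were a xenograft in rats given cyclosporin A daily, and reads mapping to the human genome had been removed before counting, so the values describe the host tissue. The study's methods call the libraries of a condition biological replicates, while the labels do not say whether each is a separate rat. The p-values therefore set a difference against the spread between these libraries.

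Integrins are receptors that sit in the cell membrane as a pair of 1 alpha and 1 beta subunit and connect the extracellular matrix, or a ligand on another cell, with the cytoskeleton. Laminins are secreted trimers of an alpha, a beta and a gamma chain, and they form the sheet-like basement membranes around blood vessels, meninges, Schwann cells and muscle fibres. In the injured cord, integrins of the beta 2 family are carried by microglia and by leukocytes that enter from the blood, while the fibrotic scar and the glial border lay down basement membrane.

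Because Itgam and Itgax, leukocyte genes on the same chromosome, and Lamb1 and Lamc1, chains of the same laminin trimers, rose together after injury, their promoters are shown. RefSeq (build GRCr8) held a promoter for 27 of the 35 members, and the sequences are the 250 bases before the gene start, read on the strand of the gene. Shown are Itgam (ENSRNOG00000019728, chr1:192089342-192089591, plus strand) and Itgax (ENSRNOG00000036703, chr1:192149799-192150048, plus strand), which encode the alpha M and alpha X subunits, and Lamb1 (ENSRNOG00000005678, chr6:53562846-53563095, plus strand) and Lamc1 (ENSRNOG00000002680, chr13:68051987-68052236, minus strand), which encode the laminin beta 1 and gamma 1 chains. Capitals mark the letters GAGGAA (1 form of ETS family sites), TGACTCA (AP-1) and GGGCGG (GC box) or their reverse complements. The shorter ETS core GGAA was not searched for or marked by itself.
Itgam: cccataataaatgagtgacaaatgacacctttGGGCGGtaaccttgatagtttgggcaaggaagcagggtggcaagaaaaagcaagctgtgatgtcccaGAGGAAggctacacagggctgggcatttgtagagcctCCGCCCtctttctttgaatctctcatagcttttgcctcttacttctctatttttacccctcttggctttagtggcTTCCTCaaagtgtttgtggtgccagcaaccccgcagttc
Itgax: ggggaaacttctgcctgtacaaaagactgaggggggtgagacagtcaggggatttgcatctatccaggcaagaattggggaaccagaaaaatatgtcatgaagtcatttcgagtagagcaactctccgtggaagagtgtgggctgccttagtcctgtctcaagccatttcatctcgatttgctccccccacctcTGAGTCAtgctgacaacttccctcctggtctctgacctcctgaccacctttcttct
Lamb1: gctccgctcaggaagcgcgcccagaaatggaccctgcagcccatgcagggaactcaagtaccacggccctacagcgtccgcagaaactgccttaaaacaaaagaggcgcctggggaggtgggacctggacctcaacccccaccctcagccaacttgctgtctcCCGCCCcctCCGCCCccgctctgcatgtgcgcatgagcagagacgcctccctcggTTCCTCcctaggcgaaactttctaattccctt
Lamc1: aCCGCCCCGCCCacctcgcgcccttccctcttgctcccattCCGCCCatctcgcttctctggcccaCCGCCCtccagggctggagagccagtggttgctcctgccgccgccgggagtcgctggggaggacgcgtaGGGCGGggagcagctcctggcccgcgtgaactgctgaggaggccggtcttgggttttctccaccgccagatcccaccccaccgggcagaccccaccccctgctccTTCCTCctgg
Both strands were searched, and no match shares a base with a match of another of the 3 motifs, while the first 2 GGGCGG matches in Lamc1 share 1 base. GAGGAA was found in the same window of 11 of the 27 member promoters and in 23.3% of the 33469 promoters in the table. It was found at -151 and -39 from the gene start in Itgam, at -32 in Lamb1 and at -10 in Lamc1, but not in Itgax. TGACTCA was found in 1 of the 27, that of Itgax at -56, and in 4.05% of all promoters. GGGCGG was found in 14 of the 27 and in 30.5% of all promoters, with 2 matches in Itgam, 2 in Lamb1, 5 in Lamc1 and none in Itgax. A match describes these letters and not a bound site.

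Total counts lay between 19496602 and 43468509 per library. Levels are given as CPM, the counts scaled to library size with TMM factors, and as CPM per kb of gene length where genes are compared with each other. The sums of 6 markers of oligodendrocytes and 8 of neurons were highest in Intact, at 49379 to 55950 CPM and 8978 to 10971 CPM, and the neuron sum was 408 to 1836 CPM in sub-SCI. Since these are bulk samples, fewer cells of a type and less RNA per cell cannot be told apart. The labels number the libraries within a group, and some of them stood apart from their group for several members. Replicate 1 of +PBS-4w was low for most laminins and had a neuron sum of 5288 CPM against 1547 to 2152 CPM in the other 3. Replicate 3 of +PBS-1w was high for laminins and had a Schwann cell marker sum of 3117 CPM against 316 and 373 CPM. Replicate 1 of Intact was low for Itgb4, Itga10 and Lamb2 and had a Schwann cell sum of 73.9 CPM against 639 to 1312 CPM. Replicate 3 of sub-SCI had a fibroblast and perivascular marker sum of 13723 CPM against 6689 and 7261 CPM. It was the highest of its group for Lamb1, Lama4 and Lamb3. For the main calls that depend on these libraries, the result without them is given below.

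**Figure D1:**
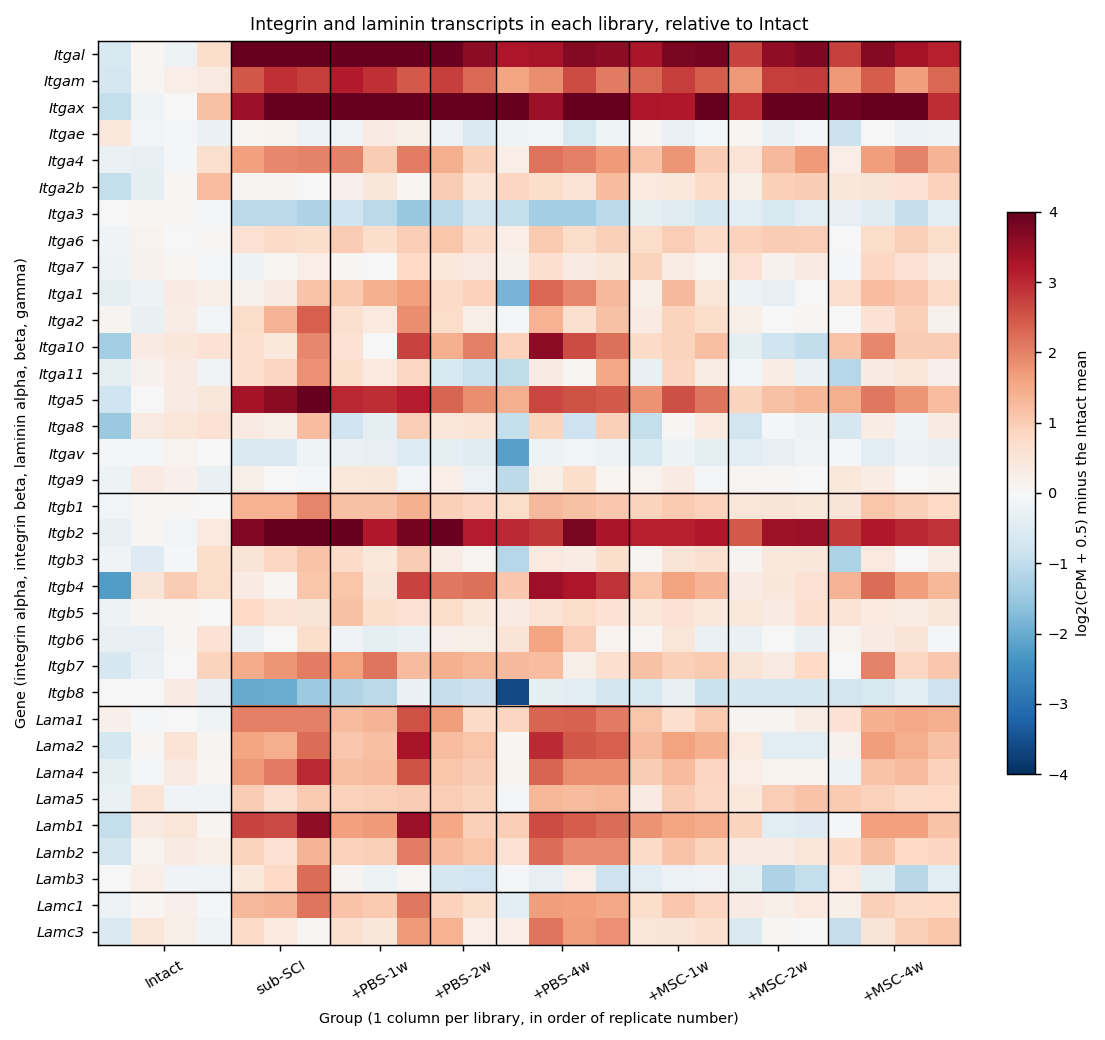
Level of 34 of the 35 members (rows, ordered by role) in each of the 26 libraries (columns, grouped), as log2(CPM + 0.5) minus the mean of the Intact libraries, with colours saturating at 4 and -4. The rows for Itgal, Itgax and Itgb2 are dark red in every injured group, the laminin rows are redder in sub-SCI and most +PBS libraries than in +MSC libraries, and the first +PBS-4w column is pale or blue for most laminins.

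The first comparison asked how the injury changed these genes before any treatment. In sub-SCI against Intact, 16 of the 35 members were higher DEGs (log2 fold change above 1 and adjusted p under 0.01) against 16.6% of all genes tested, and 2 were lower against 17.5%. At an adjusted p under 0.05 with no fold limit, 21 were higher (30.5% of all genes) and 2 lower (30.9%). Without sub-SCI replicate 3, 12 members were higher DEGs and 2 lower. The median log2 fold change was 1.21 over the members and -0.02 over all genes tested. Values of change in the text are log2 fold changes ± SE from the quasi-likelihood test of edgeR, and adjusted p-values are those of Benjamini and Hochberg over the 17990 genes.

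Of the 6 leukocyte and platelet alpha subunits, 4 were higher DEGs (16.6% of all genes), and so was their main partner. Itgb2, the shared beta 2 partner of the leukocyte alpha subunits, measured 15.7, 20.4, 18.4 and 26.1 CPM in Intact and 264, 336 and 333 CPM in sub-SCI, a 15.4-fold rise (3.95 ± 0.27, adjusted p = 1.76e-10). Itgal, the alpha L subunit of LFA-1, measured 4.09, 6.87, 5.55 and 10.9 CPM in Intact and 110, 161 and 117 CPM in sub-SCI (4.22 ± 0.31, adjusted p = 3.88e-10). In both genes each injured library lay above each Intact one, which held for 32.9% of all genes tested. Itgam, the microglia and macrophage marker CD11b, measured 17.2, 28.5, 34 and 36 CPM against 159, 213 and 194 CPM (2.70 ± 0.30). Itgax (CD11c) measured 0.218, 0.733, 0.879 and 2.62 CPM against 14.4, 35.8 and 41.6 CPM (4.71 ± 0.57), the highest fold change among the members. Itga4, which pairs with beta 1 or beta 7, and Itgb7 rose by 1.99 ± 0.45 and 1.99 ± 0.47. By contrast Itgae, the partner of beta 7 on intraepithelial lymphocytes, measured 8.78 CPM in Intact and 8.54 CPM in sub-SCI on average (-0.04 ± 0.21, adjusted p = 0.889). Itga2b, the platelet alpha subunit, measured 2.18, 3.44, 4.95 and 11.7 CPM in Intact and 5.06, 5.07 and 4.58 CPM in sub-SCI (-0.19 ± 0.36, adjusted p = 0.664), with all injured libraries inside the Intact range.

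Immune marker lists were summed per library for comparison. The 8 microglia and macrophage markers summed to 263 to 390 CPM in Intact and 2148 to 2529 CPM in sub-SCI, with 6 of 8 higher DEGs and all 8 higher at an adjusted p under 0.05. The 5 T cell markers summed to 0.327 to 0.988 CPM and 11.8 to 18.2 CPM, with all 5 higher DEGs. Over all genes tested, 16.6% were higher DEGs and 30.5% were higher at an adjusted p under 0.05. The 5 neutrophil markers summed to 6.44 to 128 CPM and 39.3 to 58.3 CPM, which overlap, and none of them was called. The 4 platelet and megakaryocyte markers summed to 1.04 to 13.4 CPM and 76.4 to 93.6 CPM, with 1 of the 4 at 0 in both groups. This sum rose although Itga2b did not. The part of these cells in the integrin levels was not tested.

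Among the alpha subunits of other cells, the fibronectin receptor subunit Itga5 changed most. It measured 3, 5.5, 7.08 and 7.79 CPM in Intact and 59.8, 73.5 and 120 CPM in sub-SCI, a 14.4-fold rise (3.84 ± 0.33, adjusted p = 3.25e-09). The lowest injured library held several times the level of the highest Intact library. The other RGD-binding subunits did not follow it. Itgav, the common alpha V subunit, measured 97.2, 96.6, 112 and 101 CPM against 67.9, 68.3 and 89.3 CPM (-0.43 ± 0.28, adjusted p = 0.185), and Itga8 gave 0.48 ± 0.52 (adjusted p = 0.437). The difference between Itga5 and these subunits was not itself tested.

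Of the 3 laminin-binding subunits, Itga3 fell, Itga6 rose and Itga7 did not pass the test. Itga3 measured 54.1, 57.4, 56.3 and 52.1 CPM in Intact and 25.6, 25.6 and 23 CPM in sub-SCI (-1.15 ± 0.16, adjusted p = 2.49e-06). The spread within each group was small beside this gap. Itga6, which pairs with beta 1 or beta 4, measured 115, 139, 125 and 131 CPM against 194, 217 and 210 CPM (0.69 ± 0.18, adjusted p = 0.00197), so it rose without reaching the fold limit of a DEG. Itga7, best known from skeletal and smooth muscle, gave 0.04 ± 0.22. The collagen-binding subunits were low, at 0.175 CPM (Itga2) to 5.98 CPM (Itga1) on average in Intact. Itga2 was a higher DEG (3.17 ± 0.75) at 0.61, 1.2 and 2.98 CPM in sub-SCI, Itga11 rose at the looser limit (1.33 ± 0.51, adjusted p = 0.0277), and Itga1 and Itga10 did not pass. Without sub-SCI replicate 3, its highest library, Itga11 was no longer called (adjusted p = 0.205). Itga9, a tenascin-C receptor subunit, gave 0.03 ± 0.27, while Tnc, the gene of that ligand, measured 9.99 ± 4.40 CPM (SD, n = 4) in Intact and 645 ± 281 CPM (SD, n = 3) in sub-SCI (adjusted p = 1.09e-08).

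Among the beta subunits, Itgb1 had the highest mean level per kb in every group. It pairs with most matrix-binding alpha subunits. It measured 190, 213, 214 and 203 CPM in Intact and 542, 536 and 792 CPM in sub-SCI, a 3.04-fold rise (adjusted p = 7.79e-09). The groups did not overlap, as for 32.9% of all genes in this direction. Per kb of gene length, Itgb1 took 44.0% ± 4.14 (SD, n = 4) of the beta subunit transcripts in Intact and 51.9% ± 3.48 (SD, n = 3) in sub-SCI. Itgb2 went from 5.00% ± 0.996 to 30.6% ± 4.28. Itgb8, whose product pairs with alpha V and activates latent TGF-beta, went the other way, from 24.3% ± 4.19 to 2.66% ± 0.148. These shares are a description and were not tested. In CPM, Itgb8 measured 106, 105, 135 and 87.3 in Intact and 26.1, 26.9 and 38.6 in sub-SCI (-1.83 ± 0.44, adjusted p = 0.00109). For Itgb8 and Itga3 every injured library lay below every Intact one, as for 34.0% of all genes. Itgb5, another alpha V partner, rose within the fold limit (0.63 ± 0.13, adjusted p = 0.00033). Itgb3, Itgb4 and Itgb6 did not pass the test.

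**Figure D2:**
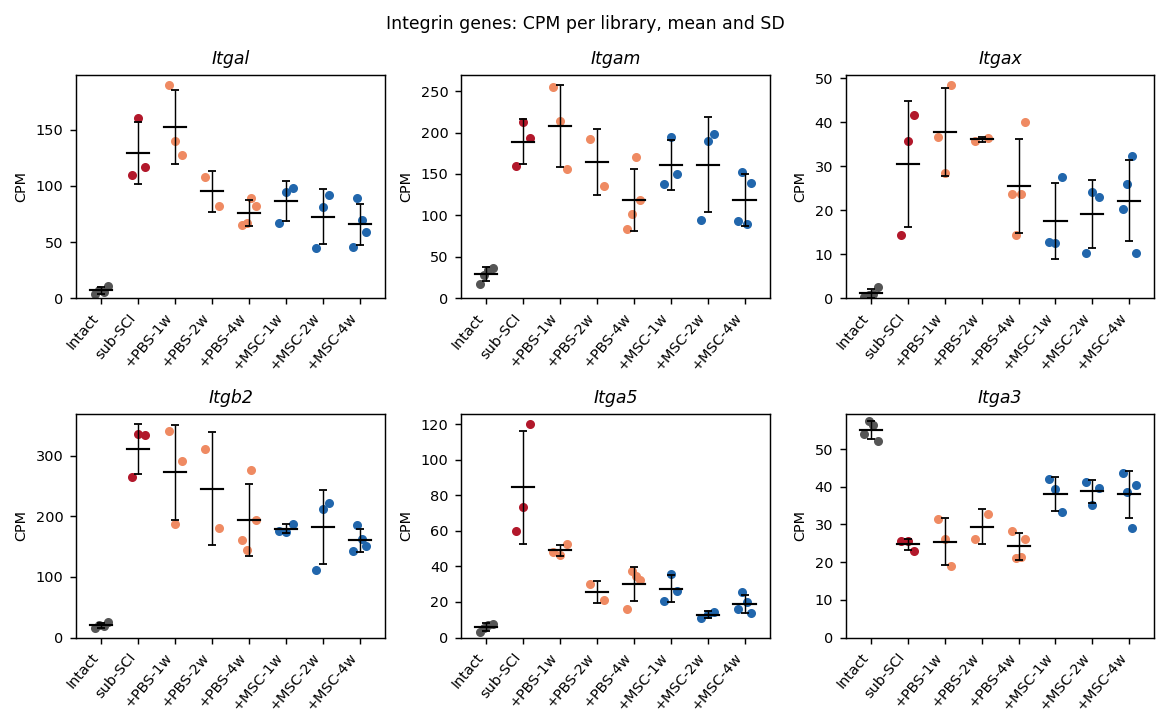
CPM of Itgal, Itgam, Itgax, Itgb2, Itga5 and Itga3 in every library (points), with the mean (bar) and SD of each of the 8 groups. The first 5 genes lie near the axis in Intact and above it in all injured groups, while Itga3 lies at 52.1 to 57.4 CPM in Intact, at 18.9 to 32.7 CPM in sub-SCI and +PBS and at 29 to 43.7 CPM in +MSC.

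Of the 10 laminin chains, 7 were higher DEGs in sub-SCI (16.6% of all genes) and 9 were higher at an adjusted p under 0.05 (30.5%). Their median log2 fold change was 1.71, and the calls of Lamb2 and Lamb3 depended on replicate 3 of sub-SCI. Lamb1, the beta 1 chain of vascular and embryonic laminins, measured 11.8, 30.1, 32.8 and 25.4 CPM in Intact and 154, 147 and 279 CPM in sub-SCI (2.95 ± 0.50, adjusted p = 3.18e-05). Lama4, the endothelial and perivascular alpha 4 chain, measured 21.6, 27.9, 37.3 and 30 CPM against 97.1, 122 and 229 CPM (2.35 ± 0.42). Lama1 stood out for its narrow spread, with 8.84, 7.42, 7.77 and 6.8 CPM against 32.7, 32.5 and 32.5 CPM (2.08 ± 0.33, adjusted p = 1.21e-05). For all of them the injured libraries lay above the Intact ones, as for 32.9% of all genes. Replicate 3 of sub-SCI was the highest for Lamb1 and Lama4 and not for Lama1.

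Lama2, Lamc1 and Lamb2 were higher as well. Lama2, the alpha 2 chain of muscle, Schwann cell and glial basement membranes, measured 20.5, 34.4, 49 and 35.8 CPM in Intact and 99.7, 92.6 and 160 CPM in sub-SCI (1.75 ± 0.53, adjusted p = 0.0069). Lamc1, the gamma 1 chain found in most laminin trimers, measured 74.3, 92.3, 101 and 82.5 CPM against 217, 222 and 387 CPM (1.65 ± 0.34, adjusted p = 0.000254). Lamb2, the beta 2 chain of mature vessels and synapses, measured 87.9, 163, 184 and 173 CPM against 273, 219 and 376 CPM and stayed under the fold limit (0.93 ± 0.31, adjusted p = 0.0127). Without sub-SCI replicate 3 the looser call for Lamb2 was lost (adjusted p = 0.0902). Per kb, the makeup of the beta chains differed between the groups. Lamb1 was 14.2% ± 1.87 (SD, n = 4) of the 3 beta chains in Intact and 40.2% ± 3.09 (SD, n = 3) in sub-SCI, with ranges of 12.1 to 16.0% and 36.9 to 43.0%, and Lamb2 went from 84.6% ± 1.65 to 58.6% ± 3.62.

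Lamb3, the beta 3 chain known from epithelial basement membranes, was low. It measured 1.36, 1.74, 1.2 and 1.18 CPM in Intact and 2.01, 2.75 and 8.34 CPM in sub-SCI (1.67 ± 0.48, adjusted p = 0.00507). The rise rested on replicate 3, and without it the adjusted p was 0.164. Lama5 rose within the fold limit (0.90 ± 0.26), and Lamc3 did not pass the test (0.38 ± 0.43, adjusted p = 0.461).

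The 7 fibroblast and perivascular markers, among them Col1a1 and Pdgfrb, summed to 157 to 1076 CPM in Intact and 6689 to 13723 CPM in sub-SCI, the highest value being in replicate 3. All 7 were higher DEGs, against 16.6% of all genes tested. The 5 endothelial markers in the table summed to 171 to 211 CPM and 311 to 446 CPM. Among them Cldn5, usually a defining endothelial gene, was at 0 in all 26 libraries, so the sum rests on the others. The reason for this could not be checked. The part of these cells in the laminin levels was not tested.

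The partners of integrins and laminins outside the family were followed as 3 lists. Of 22 genes of integrin activation and the adhesion complex, 6 were higher and 1 was a lower DEG, led by the hematopoietic kindlin Fermt3 (3.48 ± 0.25) and the leukocyte parvin Parvg (3.49 ± 0.26), with the talin Tln2 falling by 1.67 ± 0.29 on the log2 scale. Of 16 tested ligands other than laminins, 8 were higher DEGs and none was lower, led by the beta 2 ligand Icam1 (2.87 ± 0.25) and by Tnc, while the adhesive plasma protein vitronectin, Vtn, fell within the fold limit (-0.85 ± 0.27, adjusted p = 0.0108). Of 8 basement membrane partners, 5 were higher DEGs, led by the collagen IV chains Col4a1 (3.11 ± 0.26) and Col4a2 (2.08 ± 0.26). Over all genes tested, 16.6% were higher DEGs and 17.5% lower. The medians were 0.71, 2.01 and 1.65 for the 3 lists against -0.02 over all genes.

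**Figure D3:**
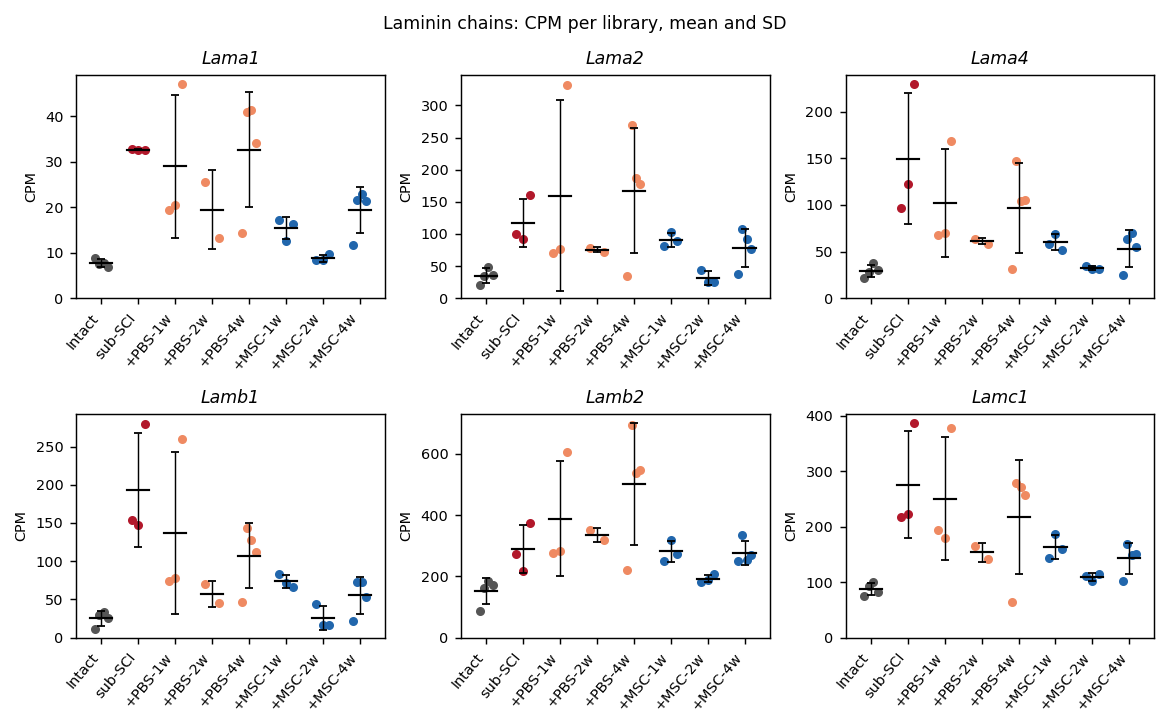
CPM of 6 laminin chains in every library (points), with the mean (bar) and SD of each of the 8 groups. Every sub-SCI library lies above every Intact library for all 6, as for 32.9% of all genes tested. Single libraries (+PBS-1w replicate 3 high, +PBS-4w replicate 1 low) widen the SD of the +PBS groups.

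The next comparisons followed the injured cord without cells. Against the same 4 Intact libraries, 14 members were higher DEGs in +PBS-1w (13.5% of all genes), 6 in +PBS-2w (8.84%) and 17 in +PBS-4w (13.3%). Lower DEGs were 1, 0 and 1 (12.5%, 5.66% and 10.7% of all genes). Without +PBS-1w replicate 3, there were 10 higher and 0 lower DEGs at 1 wpt. With all libraries the lower DEG was Itga3 at both times, with -1.11 ± 0.16 at 1 wpt and -1.18 ± 0.15 at 4 wpt. At 2 wpt its value was -0.90 ± 0.18 (adjusted p = 0.000685), and it was the 1 member lower there at an unadjusted p under 0.05 in the edgeR test (22.0% of all genes), while DESeq2 gave 0 lower DEGs as well. Itgal, Itgam, Itgax, Itga5, Itgb2 and Lama1 were higher DEGs at all 3 times. At 2 wpt Lama1 lost its call without +PBS-2w replicate 1, 1 of the 2 libraries there, and without all replicate 1 libraries (adjusted p up to 0.245). Since the 3 comparisons share their controls, their values are given side by side and not as repeats of each other.

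Directly between +PBS-4w and sub-SCI, 1 member was a higher DEG (4.28% of all genes) and 2 were lower (3.09%), and at an adjusted p under 0.05 the counts were 1 (13.4%) and 5 (11.6%). The Itga5 level fell from 59.8, 73.5 and 120 CPM to 16, 37.6, 34.5 and 32.3 CPM (-1.49 ± 0.30, adjusted p = 0.00118), and that of Itgb1 to 343, 508, 462 and 433 CPM (-0.51 ± 0.15, adjusted p = 0.0129). Itgal and Itgb2 were lower as well (-0.77 ± 0.28, adjusted p = 0.0468, and -0.68 ± 0.25, adjusted p = 0.0499), but these calls were lost in 16 and 22 of 35 alternatives. Lamb3 fell to 1.3, 0.988, 1.74 and 0.551 CPM (-1.92 ± 0.49, adjusted p = 0.00619). The call for Itga5 held in all 35 alternatives. Those for Itgb1 and Lamb3 were lost without sub-SCI replicate 3 and with edgeR on the 2 groups, and that for Itgb1 also with DESeq2 on the 2 groups, with adjusted p up to 0.163 (Itgb1) and 0.144 (Lamb3). For Itga5, Itgb1 and Lamb3 every library at 4 wpt lay below every sub-SCI library, as for 13.8% of all genes. The microglia and macrophage sum was 1094 to 1677 CPM at 4 wpt, against 2148 to 2529 CPM in sub-SCI, and its part in these changes was not tested.

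Set against Intact, +PBS-4w had 8 of 10 laminins as higher DEGs (13.3% of all genes), with a laminin median of 1.65. Lama2 gave 2.26 ± 0.51, Lama4 1.73 ± 0.39, Lama1 2.08 ± 0.31 and Lamb2 1.72 ± 0.30, each with an adjusted p under 0.01, and of the integrins Itgal gave 3.45 ± 0.29, Itgb2 3.26 ± 0.26 and Itga10 2.78 ± 0.67. Without Intact replicate 1, the low library, Itga10 gave 2.48 (adjusted p = 0.00471) and Lamb2 1.58 (adjusted p = 0.000283). Per kb, Lamb1 made up 18.2% ± 1.01 (SD, n = 4) of the beta chains in +PBS-4w, with a range of 17.6 to 19.7%. This lies below the range in sub-SCI and above that in Intact. Among the ligands, Vtn was higher in +PBS-4w than in sub-SCI (2.39 ± 0.29, adjusted p = 8.88e-06) and Tnc lower (-4.15 ± 0.52, adjusted p = 1.07e-05). Of the basement membrane partners, Col4a1 was lower (-1.94 ± 0.26) and the laminin receptor Bcam higher (0.84 ± 0.14), and of the adhesion complex Parvg was lower (-1.33 ± 0.24). In these 3 lists 1 of 16, 0 of 8 and 0 of 22 genes were higher DEGs (4.28% of all genes) and 3, 2 and 1 were lower (3.09%).

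Itgb4 was the exception among the integrins. The beta 4 subunit pairs with alpha 6 as a laminin receptor of epithelia, Schwann cells and some vessels. It measured 18.6, 127, 180 and 149 CPM in Intact, 112, 94 and 196 CPM in sub-SCI and 188, 960, 839 and 671 CPM in +PBS-4w. The rise from sub-SCI to +PBS-4w was 2.31 ± 0.61 (adjusted p = 0.00795), although +PBS-4w replicate 1 lay within the sub-SCI range. Over the 35 alternatives Itgb4 gave 2.08 to 2.69 with adjusted p between 0.000132 and 0.0406, and leaving out any one of 13 libraries put it above the DEG limit of 0.01. Without +PBS-4w replicate 1 it was 2.61 ± 0.58 (adjusted p = 0.00166), and Itga1, Itgb8 and Lamb2 also became higher DEGs (1.31 ± 0.31, 1.29 ± 0.22 and 1.03 ± 0.28). With all libraries Lamb2 at 222, 695, 538 and 549 CPM gave 0.79 ± 0.32 (adjusted p = 0.0707), and Lamc3, at 27.8, 21.3 and 16.5 CPM in sub-SCI and 19.3, 72.5, 52 and 58.2 CPM in +PBS-4w, gave 1.21 ± 0.45 (adjusted p = 0.0522). Both missed the threshold.

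The Schwann cell markers are given beside Itgb4. Their sum was 73.9, 1312, 752 and 639 CPM in Intact, 329, 297 and 733 CPM in sub-SCI and 1566, 3405, 2385 and 1937 CPM in +PBS-4w. Of the 7 markers, 2 were higher DEGs between the latter groups (4.28% of all genes) and 5 were higher at an adjusted p under 0.05 (13.4%). Intact replicate 1, the library with the lowest Itgb4 level, also had the lowest Schwann cell sum of all 26. Among +PBS-1w libraries replicate 3 had the highest of both, 581 CPM of Itgb4 against 192 and 127 CPM. In +MSC-2w the sums were 1246, 282 and 280 CPM while Itgb4 lay at 113, 122 and 136 CPM, so the levels did not go together there. The part of Schwann cells, or of spinal roots in the segment, in the Itgb4 level was not tested.

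**Figure D4:**
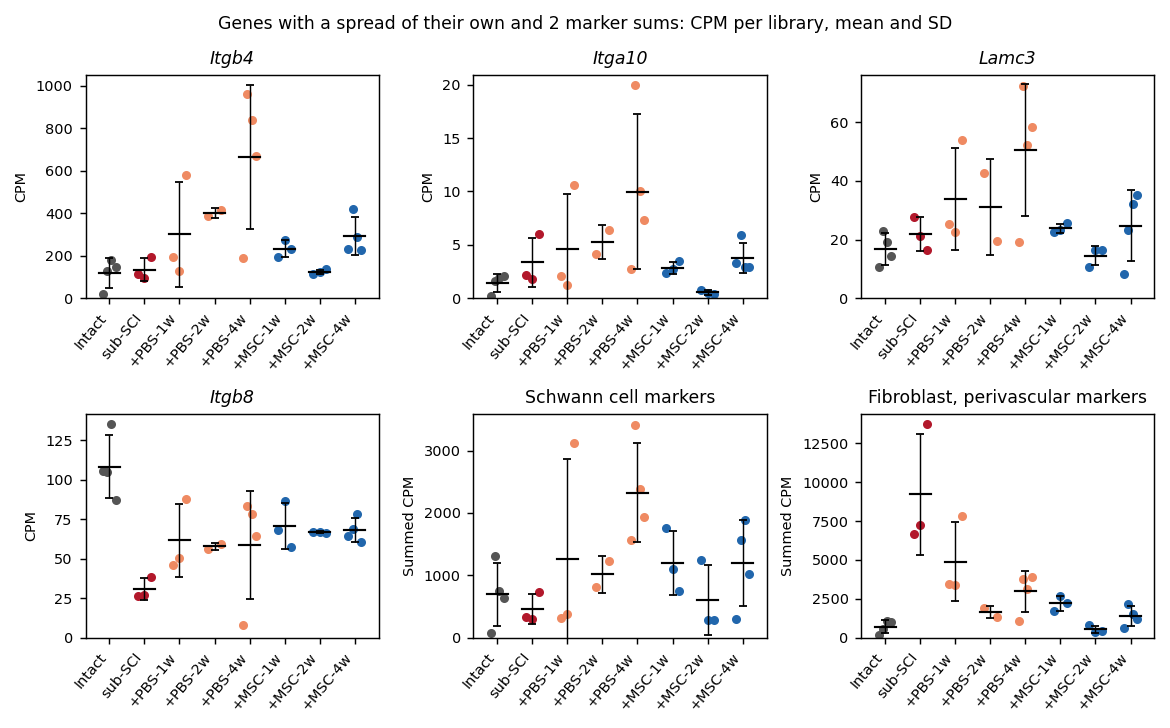
CPM of Itgb4, Itga10, Lamc3 and Itgb8 and summed CPM of 7 Schwann cell and 7 fibroblast and perivascular markers in every library (points), with the mean (bar) and SD of each of the 8 groups. Itgb4, Itga10 and Lamc3 have their highest libraries in +PBS-4w, where the Schwann cell sum lies at 1566 to 3405 CPM, and Itgb8 is highest in Intact.

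The last comparisons asked what the transplanted cells changed, with +MSC set against +PBS of the same week. At 1 and 2 wpt no member was called by edgeR's quasi-likelihood test on all libraries at an adjusted p under 0.05, against 0.0389% higher and 0.0611% lower of all genes at 1 wpt and 0% in either direction at 2 wpt. At an unadjusted p under 0.05, 1 was higher (10.6% of all genes) and 6 were lower (7.34%) at 1 wpt, and 1 was higher (5.49%) and 8 were lower (6.84%) at 2 wpt. DESeq2 on all libraries called 1 at each of these weeks, DESeq2 on the 2 groups called 3 and 12, and edgeR on the 2 groups called 0 and 4. At 4 wpt 1 member, Itga3, was called higher by edgeR (3.07% of all genes) and 0 lower (0.928%), with 9 lower at an unadjusted p under 0.05 (11.3%) and 1 lower by DESeq2 on all libraries. Without +PBS-4w replicate 1 edgeR called 10 lower, and the call for Itga3 was lost when replicate 2 of +PBS-4w or replicate 1 of +MSC-4w was left out. The shares of all genes given for these weeks are those of edgeR on all libraries. The weekly differences shared a direction for most members. At every week 22 of the 35 were lower in +MSC, against 30.5% of all genes, and all 10 laminins were. The laminin medians were -0.56 at 1 wpt and -0.81 at 4 wpt, and at 2 wpt the laminins ranged from -0.05 (Lama5) to -1.28 (Lama2). The median over all genes was within 0.04 of 0 at each week. The members are not independent of each other, and this count carries no test.

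With the 3 weekly differences averaged in 1 contrast, 12 members were lower in +MSC at an adjusted p under 0.05 (10.9% of all genes) and 1 was higher (12.3%). One of them, Itga10, met both limits of a DEG (0.956% of all genes were lower DEGs and 1.61% higher). The median over members was -0.44 and over laminins -0.83, beside -0.02 over all genes. Replicate 1 of +PBS-4w had low levels of many of these genes, and without it 16 members were lower and 5 were lower DEGs. Without replicate 1 of +PBS-2w or replicate 3 of +PBS-1w, 4 and 5 members were lower. The shares of all genes given above are those of the fit with all libraries. These refit counts therefore cannot be set against them. Itga3, Itga10, Itga5, Lama1 and Lamb2 kept an adjusted p under 0.05 in all alternatives that could test them, while Itgb2 lost it in 18 of 33. No difference between the weeks was called for any member or gene (0%) by edgeR, or for any member by DESeq2 on all libraries. Before adjustment 1 member, Itgb6, passed 0.05, against 2.67% of all genes.

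Itga3 was the only member called higher. In +PBS it measured 31.5, 26 and 18.9 CPM at 1 wpt, 26.2 and 32.7 CPM at 2 wpt and 28.4, 21, 21.3 and 26.2 CPM at 4 wpt. In +MSC it measured 42, 39.3 and 33.2 CPM, then 41.3, 35.3 and 39.8 CPM, then 43.7, 38.7, 29 and 40.5 CPM. The groups did not overlap at any week, which held for 2.68% of all genes in this direction. The mean difference was 0.54 ± 0.10 (adjusted p = 0.000976), and at 4 wpt alone it was 0.65 ± 0.15 (adjusted p = 0.0156). The level in +MSC-4w was still below Intact (-0.53 ± 0.14, adjusted p = 0.00786). The alpha 3 subunit pairs with beta 1 as a laminin receptor and is found on neurons as well as epithelia. The neuron marker sum was 3349 to 8064 CPM in +MSC and 1051 to 5288 CPM in +PBS over the 3 weeks, and its part was not tested. Within each +PBS group the libraries ranked in the same order for the neuron sum and for Itga3. In +MSC-1w and +MSC-2w replicate 1 was the highest in both, while the remaining libraries ranked differently. In +PBS-4w, replicate 1 had the highest neuron sum (5288 CPM) and the highest Itga3 level (28.4 CPM). In +MSC-4w, replicate 3 had the highest neuron sum (6602 CPM) and the lowest Itga3 level (29 CPM). The higher members next in adjusted p were the alpha V partner Itgb8 (0.21 ± 0.26, adjusted p = 0.604) and Itgav itself (0.12 ± 0.17, adjusted p = 0.678), which did not pass. Itgb8 measured 45.9, 50.7 and 88.1, then 56.3 and 59.1, then 8.23, 83.1, 78.2 and 64.6 CPM in +PBS at the 3 weeks, against 68.5, 86.2 and 57.6, then 67.1, 66.9 and 66.3, then 64.6, 68.8, 78.2 and 60.3 CPM in +MSC. Itgav measured 83.4, 80.9 and 69.7, then 78.8 and 71.6, then 22.3, 88.3, 94.5 and 88.8 CPM in +PBS, against 67, 87.9 and 77.9, then 76.3, 81.3 and 91.6, then 97.7, 74.9, 85.4 and 81.9 CPM in +MSC. The groups overlapped at every week except for Itgb8 at 2 wpt, where 18.6% of all genes were higher without overlap. For both genes +PBS-4w replicate 1 was the lowest library at 4 wpt.

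Among the integrins lower in +MSC, Itga10, a collagen receptor subunit of cartilage and fibroblasts, fell most. It measured 2.08, 1.23 and 10.6 CPM in +PBS-1w, 4.16 and 6.41 CPM in +PBS-2w and 2.72, 19.9, 10 and 7.29 CPM in +PBS-4w. In +MSC it measured 2.4, 2.7 and 3.47 CPM, then 0.794, 0.492 and 0.36 CPM, then 3.26, 5.92, 2.97 and 2.97 CPM (-1.78 ± 0.43, adjusted p = 0.00682). The groups overlapped at 1 and 4 wpt and not at 2 wpt, where 18.4% of all genes were lower without overlap. Over 32 alternatives Itga10 gave -2.15 to -1.29 with adjusted p up to 0.0275, and leaving out any one of 13 libraries put it above the DEG limit. Itga5, a higher DEG in each injured group set against Intact, measured 48.1, 46.6 and 52.5 CPM in +PBS-1w against 20.4, 35.8 and 26.3 CPM in +MSC-1w, 29.9 and 21.3 CPM against 10.8, 13.1 and 14.5 CPM at 2 wpt, and 16, 37.6, 34.5 and 32.3 CPM against 16, 25.7, 19.9 and 13.7 CPM at 4 wpt (-0.84 ± 0.19, adjusted p = 0.00423). Its groups overlapped only at 4 wpt, and lower values without overlap were seen for 11.6% of all genes at 1 wpt and 18.4% at 2 wpt. Itgb1 (-0.32 ± 0.09, adjusted p = 0.0142), Itgb4 (-1.08 ± 0.35, adjusted p = 0.0283) and Itgb2 (-0.44 ± 0.16, adjusted p = 0.0465) were lower too. The call for Itgb4 was lost without any one of 5 libraries, +PBS-1w replicate 3 among them, with adjusted p up to 0.103. That for Itgb1 was lost without +PBS-2w replicate 1 (adjusted p = 0.0525). Itgal missed the threshold narrowly (-0.47 ± 0.17, adjusted p = 0.0519) and Itgam gave -0.13 ± 0.18 (adjusted p = 0.633).

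Of the 10 laminins, 7 were lower in +MSC over the 3 weeks at an adjusted p under 0.05 (10.9% of all genes). Lama1, the alpha 1 chain of meningeal and embryonic basement membranes, measured 19.3, 20.5 and 47.1 CPM in +PBS-1w against 17.1, 12.6 and 16.3 CPM in +MSC-1w. It measured 25.6 and 13.3 CPM against 8.4, 8.29 and 9.61 CPM at 2 wpt, and 14.3, 40.9, 41.3 and 34.1 CPM against 11.7, 21.5, 22.9 and 21.3 CPM at 4 wpt (-0.94 ± 0.20, adjusted p = 0.00295). Only at 4 wpt did a +PBS library, replicate 1, fall within the +MSC range. No overlap in this direction held for 11.6% of all genes at 1 wpt and 18.4% at 2 wpt. Lamb2 (-0.71 ± 0.19, adjusted p = 0.0119), Lama4 (-0.85 ± 0.25, adjusted p = 0.0198), Lamb1 (-1.01 ± 0.30, adjusted p = 0.0204), Lamc3 (-0.88 ± 0.27, adjusted p = 0.0223) and Lama2 (-1.06 ± 0.33, adjusted p = 0.0233) were among the others. Leaving out +PBS-1w replicate 3, or +PBS-2w replicate 1, removed the calls for Lama4, Lamb1, Lamc3 and Lama2. Their adjusted p then reached up to 0.0638, 0.0838, 0.138 and 0.0963. Lamc1 missed the threshold (-0.57 ± 0.21, adjusted p = 0.0521), and at 4 wpt it measured 64.4, 279, 272 and 256 CPM in +PBS against 103, 168, 149 and 151 CPM in +MSC. Lama5 (-0.15 ± 0.16) and Lamb3 (-0.22 ± 0.32) did not pass.

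The fibroblast and perivascular marker sum was lower with the cells as well, at 3392 to 7824 CPM in +PBS-1w and 1708 to 2650 CPM in +MSC-1w, 1350 and 1896 CPM against 371 to 774 CPM at 2 wpt, and 1069 to 3877 CPM against 610 to 2172 CPM at 4 wpt. All 7 markers were lower at an adjusted p under 0.05 in the mean of 3 weeks (10.9% of all genes), and none of the 7 Schwann cell markers was. The endothelial marker sum was 277 to 426 CPM in +PBS-1w and 230 to 243 CPM in +MSC-1w. At 2 wpt it was 269 CPM in both +PBS libraries against 161 to 220 CPM in +MSC. At 4 wpt the groups overlapped, at 184 to 404 CPM in +PBS and 187 to 261 CPM in +MSC. The part of any of these cell types in the laminin differences was not tested. The basement membrane partners went the same way, with 5 of 8 lower and none higher, led by Col4a1 (-0.92 ± 0.16) and the nidogen Nid2 (-1.25 ± 0.30). So did 8 of 16 ligands, led by Icam1 (-0.66 ± 0.15) and the junctional adhesion molecule F11r (-0.56 ± 0.14), and 6 of 22 adhesion complex genes, led by the paxillin gene Pxn (-0.60 ± 0.12) and the integrin-linked kinase Ilk (-0.19 ± 0.05), with none higher in either list. Over all genes tested, 10.9% were lower and 12.3% higher at an adjusted p under 0.05.

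**Figure D5:**
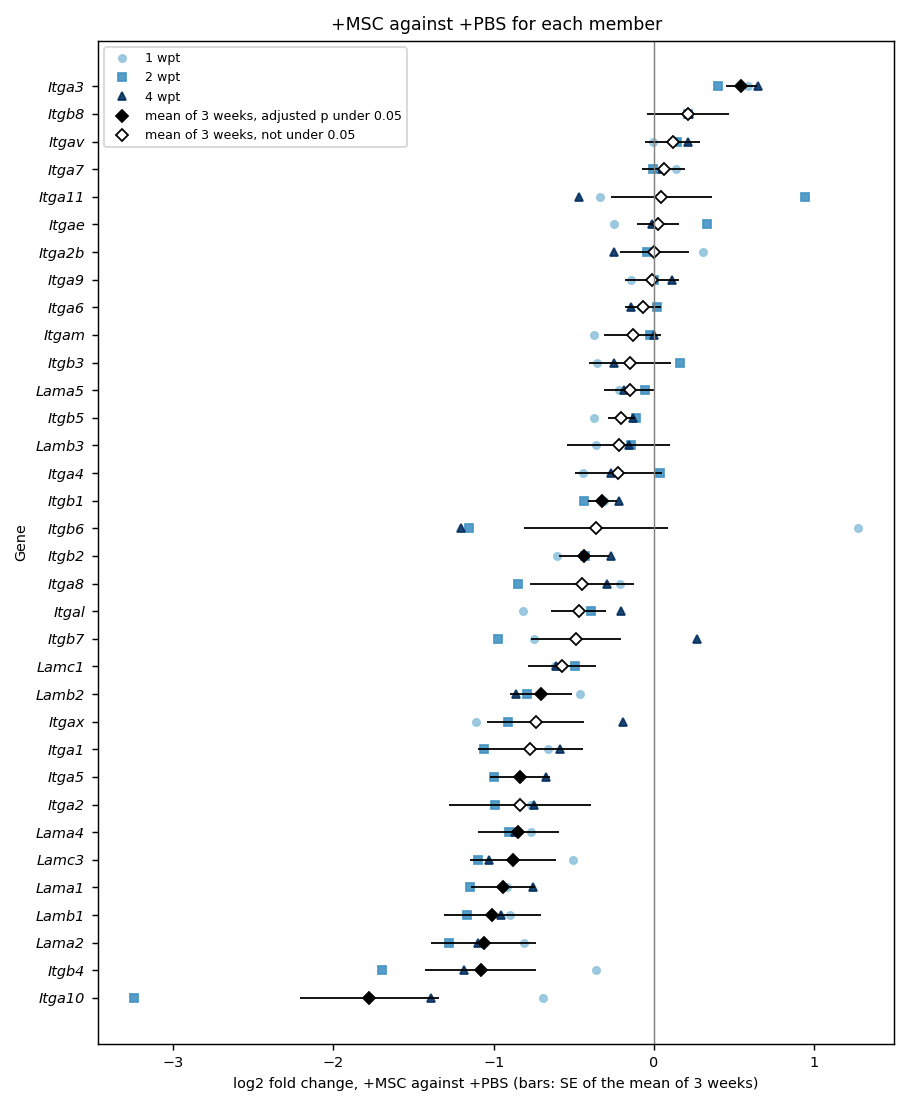
Log2 fold change of +MSC against +PBS for 34 of the 35 members at 1, 2 and 4 wpt (coloured points) and for the mean of the 3 weeks (diamonds with SE, filled where the adjusted p is under 0.05). Itga3 is the only filled diamond to the right of 0, at 0.54, and the 9 laminins drawn all lie to the left, from -0.15 for Lama5 to -1.06 for Lama2.

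The genes that had risen with the injury could be set beside those lower with the cells, since these comparisons share no library. Of the 16 members that were higher DEGs in sub-SCI, 8 were lower in +MSC over the 3 weeks, and these 8 made up 66.7% of the 12 lower members. The same shares over all genes tested were 42.2% of the genes that had risen and 64.0% of the lower genes, which is close to the members' shares. Among the 8 were Itga5, Itgb1, Itgb2, Lama1, Lama2, Lama4 and Lamb1. At 4 wpt, 7 members were higher DEGs in +MSC against Intact (7.25% of all genes) and none was a lower DEG by edgeR (1.53%) or DESeq2, with 1 member, Itga3, lower at an unadjusted p under 0.05 (19.5%). These 7 were Itgal, Itgam, Itgax, Itga4, Itga5, Itgb2 and Lama1. The corresponding count in +PBS-4w, given above, rests on the same Intact libraries, and the difference between them was not tested as a count.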

How the data were processed

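RNA was sequenced from 26 libraries of rat spinal cord in 8 groups, which were taken with their replicate numbers from the sample labels. Per the submitters' processing notes and the study's methods, the authors trimmed reads with Trim Galore 0.5.0 and used HISAT2 2.1.0 first on GRCh38, to discard reads of the grafted human cells, and then on Rnor6. SAMtools 1.9 selected proper pairs, and gene counts came from featureCounts 1.6.4. The deposited values are raw counts per gene, with no normalization, beside a gene length. The annotation release and the strand setting are not given in the sources used here, so close paralogs and overlapping genes are uncertain. Each library's own file equalled its values in the joint table. Total counts were 19496602 to 43468509 per library, and values well under 1 CPM rest on few reads.

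In R 4.3.3, 17990 genes passed filterByExpr of edgeR 4.0.16 (with limma 3.58.1) and were scaled by TMM. The 8 groups entered 1 quasi-likelihood fit without covariates, and Benjamini-Hochberg adjustment covered all these genes. DEG limits were 1 for the size of the log2 fold change and 0.01 for the adjusted p. A looser call used 0.05 with no fold limit. An SE is the absolute log2 fold change divided by the square root of F. Per-kb values divide CPM by the deposited gene length. The steps were tested on simulated counts. DESeq2 1.42.0 and the other alternatives are given in the closing section. Of the members, values in every library are given for those with the smallest adjusted p in either direction (4 and 4 in sub-SCI against Intact, 3 and 3 in +PBS-4w against sub-SCI and in the mean of 3 weeks), for the highest mean CPM of each role, and for some others chosen after their values were seen. Of the lists, the 2 genes with the smallest adjusted p in each direction are named. The values of 1 member are not reported here, though the counts over members include it. The members and the gene lists were chosen with earlier results of these data known.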

Additional observations from a re-analysis of the deposited data

Results flagged for a closer look

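In the groups of 4 libraries, 13 of 105 pairs of a member and a group had 1 library far from the other 3 by Dixon's gap ratio on log2(CPM + 0.5), where chance gives about 1 in 20. In Intact, replicate 1 was low for Itga10 (0.164 CPM), Itga8 (6.28 CPM), Itgb4 (18.6 CPM) and Lamb2 (87.9 CPM), and replicate 2 was high for Lama5 (37.8 CPM). In +PBS-4w, replicate 1 was low for Itgav (22.3 CPM), Itgb8 (8.23 CPM), Lama5 (24.9 CPM) and Lamc1 (64.4 CPM), and replicate 3 was low for Itgae (5.32 CPM). In +MSC-4w, replicate 1 was low for Itga11 (0.915 CPM) and Lama1 (11.7 CPM), and replicate 2 was high for Itga10 (5.92 CPM). Of the 13, 10 lay in replicate 1 of their group.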

How the results depend on the processing

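Alternatives covered the tool (DESeq2 on all libraries, and either tool on only the 2 groups compared), median-of-ratios size factors, the low-count filter (none, or 10 counts required throughout), a block for the replicate number, a term for replicate 1, the fit lacking all replicate 1 libraries, and single libraries left out. No called member changed sign. DESeq2 on the 2 groups gave 12 higher DEGs in +PBS-2w against Intact, 3 lower members at 1 wpt, and 12 lower with 6 lower DEGs at 2 wpt. DESeq2 on all libraries gave 1 higher at 1 wpt, 1 lower at 2 and at 4 wpt, and 4 lower DEGs in the mean of 3 weeks. edgeR on the 2 groups gave 0 higher and 0 lower DEGs in +PBS-4w against sub-SCI, 4 lower at 2 wpt and 0 higher at 4 wpt. The count filter gave 1 lower DEG in +PBS-4w against sub-SCI and 0 in the mean of 3 weeks. A term for replicate 1 gave 10 higher DEGs in +PBS-2w against Intact, and the libraries other than replicate 1 gave 3 higher DEGs in +PBS-4w against sub-SCI and 5 lower at 4 wpt. In the last of these +PBS-2w keeps 1 library, which is assumed to vary like the other groups. The cause of these shifts was not tested. Counts under the alternatives are given without the share of all genes in the same fit. Members under 1 CPM, such as Itga2 and Itgb6, rest on few reads, so smaller differences in them could not be detected at this depth.

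With the replicate block, +PBS-4w against sub-SCI had 1 lower DEG and the mean of 3 weeks 15 lower members. The numbers share no stated batch. Samples with the same number did not deviate together throughout, but replicate 1 libraries did so more often. The correlation was over 0.1 in 18 of 28 pairs of replicate 1 libraries, with a median of 0.171. For replicates 2, 3 and 4 it was over 0.1 in 5 of 28, 7 of 21 and 1 of 3 pairs. The medians there were 0.00993, 0.0639 and 0.0169. No count is given for pairs with different numbers.

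Leaving out 1 library at a time, higher DEGs against Intact were 12 to 18 in sub-SCI, 10 to 18, 5 to 7 and 15 to 20 in +PBS-1w, +PBS-2w and +PBS-4w, and 6 to 9 in +MSC-4w, and lower DEGs 0 to 1 in +PBS-1w (0 without its replicate 3) and in +PBS-2w (1 without its replicate 2). In +PBS-4w against sub-SCI there were 0 to 4 higher (0 without any one of 13 libraries) and 0 to 2 lower (0 without sub-SCI replicate 3, 1 without +PBS-4w replicate 2 or 4). At 4 wpt 0 to 1 was a lower DEG, 0 to 1 higher (0 when replicate 2 of +PBS-4w or replicate 1 of +MSC-4w was left out) and 0 to 10 lower (10 without +PBS-4w replicate 1). In the mean of 3 weeks 0 to 5 were lower DEGs and 4 to 16 lower. The comparisons of 3 weeks could not be fitted on 2 groups.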
